A study of Mus musculus with 12 samples.

Results

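Nuclear genes of the mitochondrial respiratory chain and ATP synthase were followed in c-Kit(+) cells of the mouse heart after myocardial infarction (MI). They were chosen by gene symbol alone, as Nduf followed by a, b, c, s or v, Sdha to Sdhd, Uqcr, Cox4 to Cox8, or Atp5, and names ending in -ps were left out. The rule found 75 of the 15223 listed genes: 33 named for complex I, 3 complex I assembly factors (Ndufaf4, Ndufaf5 and Ndufaf7), 4 of complex II, 8 of complex III, 13 of complex IV and 14 named for complex V. The isoform genes Cox4i2, Ndufa4l2 and Atp5g2 were not analysed here. The libraries came from the day after MI (n = 2), day 12 with Sfrp2 (n = 3), day 12 with vehicle (n = 3) and the day before MI (n = 3), with 1 further library of cardiomyocytes from sham mice. All mice were of the C57BL/6 c-KitCreERT2/mTeG strain, 8 weeks old, and had received 0.5 mg of tamoxifen daily over 14 days by the intraperitoneal route, also before MI. Tamoxifen makes the Cre protein active in cells that use the c-Kit gene, and those cells and their descendants then carry eGFP. Sfrp2 (a secreted Wnt-binding protein) or vehicle was given 2 days after MI. The day 1 labels carry the word vehicle although they precede that treatment. Whether libraries of a group came from different animals is not stated in the labels, so the spread that p-values are based on may be technical.

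Respiration passes electrons from NADH through complex I, or from succinate through complex II, to ubiquinone, then through complex III and cytochrome c to complex IV, where oxygen is reduced. Complexes I, III and IV pump protons across the inner membrane, and complex V, the ATP synthase, uses their return to make ATP. Most subunits are encoded in the nucleus and the rest in mitochondrial DNA, and heart muscle is among the tissues with the highest levels of both. Transcription factors known to act on nuclear subunit genes include NRF1, GABP (an ETS factor), the oestrogen-related receptors (ERR) and YY1.

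Of the 75 genes, 63 had a promoter window in RefSeq (GRCm38.p6), from 250 bases before to 50 bases after the start. The letters GCGCANG (NRF1) were found on either strand in 25 of these 63 windows (39.7%), against 27.3% of 10881 windows of coding genes in the deposited tables. CCGGAAG (ETS) was in 14 windows (22.2%) against 14.9%, AAGATGG (YY1) in 10 (15.9%) against 6.73%, and AAGGTCA (ERR) in 5 (7.94%) against 3.22%. Over all 27025 RefSeq windows the shares were 16.9%, 9.12%, 6.48% and 4.66% for NRF1, ETS, YY1 and ERR. Matches on both strands can overlap, and the ETS and YY1 letters can share 3 bases. Promoters of 4 genes of the results are shown, as the 200 bases before the RefSeq start, 5′ to 3′ on the gene's strand, with motif matches in capitals. Sdhd (a complex II subunit, chr9:50603850-50604049, minus strand) and Cox6a1 (the general isoform of a complex IV subunit, chr5:115348959-115349158, minus strand) hold NRF1 and ETS letters. Atp5k (a membrane subunit of the ATP synthase, chr5:108434400-108434599, minus strand) holds overlapping NRF1 matches. Cox5a (a complex IV subunit, chr9:57521032-57521231, plus strand) holds none of the 4 motifs in this stretch, which says only that these letters are not there.
Sdhd: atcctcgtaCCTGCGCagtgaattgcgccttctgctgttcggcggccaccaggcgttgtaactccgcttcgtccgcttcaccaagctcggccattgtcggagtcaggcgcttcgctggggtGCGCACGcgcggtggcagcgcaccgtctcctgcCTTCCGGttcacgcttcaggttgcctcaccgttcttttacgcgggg
Cox6a1: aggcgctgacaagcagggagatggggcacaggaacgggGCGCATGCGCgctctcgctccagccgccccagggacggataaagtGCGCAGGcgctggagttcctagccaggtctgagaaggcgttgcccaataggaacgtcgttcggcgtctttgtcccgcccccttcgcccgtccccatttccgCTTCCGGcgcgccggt
Atp5k: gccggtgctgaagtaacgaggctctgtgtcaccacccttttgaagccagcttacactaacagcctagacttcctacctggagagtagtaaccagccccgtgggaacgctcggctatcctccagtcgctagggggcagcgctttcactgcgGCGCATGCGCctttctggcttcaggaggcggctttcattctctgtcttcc
Cox5a: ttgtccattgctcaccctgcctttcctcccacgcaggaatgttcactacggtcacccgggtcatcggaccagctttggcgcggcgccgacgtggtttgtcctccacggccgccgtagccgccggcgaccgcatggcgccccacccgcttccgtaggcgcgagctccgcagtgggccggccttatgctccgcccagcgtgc

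Depth differed between libraries before any result is read. Total recovered reads of the listed genes were 1793826 and 2085161 at day 1, 1159703 to 2683841 at day 12 with Sfrp2, 200641 to 2349774 at day 12 with vehicle and 3462396 to 3570993 before MI. Mitochondrial genes held 94.5% to 97.2% of these before MI. After MI they held 85.3% to 88.5% at day 1, 59.7% to 88.2% with Sfrp2 and 3.87% to 84.4% with vehicle. Reads outside mitochondrial genes and 4 satellite-like genes numbered 97073 to 188416 before MI and 146527 to 209039 at day 1. At day 12 they numbered 224717 to 382258 with Sfrp2 and 116639 to 340826 with vehicle. Before MI, 33.9% to 42.1% of all genes were at 0, against 0.19% to 15.2% after MI. Reads on the 75 genes numbered 1243 and 768 at day 1, 1322, 675 and 1256 at day 12 with Sfrp2, 649, 1822 and 168 at day 12 with vehicle, and 1823, 1447 and 1910 before MI. Day 12 vehicle replicate 3 stood apart: 30 of the 75 genes were at 0, against at most 3 in any other c-Kit(+) library. Receptor genes of smell and taste (102 olfactory, vomeronasal and taste receptors, a class chosen after its values were seen) are not usual heart transcripts and served as a measure of background, under the name sensory receptor genes. Exon lengths were found for 99 of them, and values per exon kb rest on these. Their mean value per exon kb, multiplied by the exon length of the 75 genes, came to 5.89% and 24.3% of the summed value of the 75 genes at day 1, 9.18%, 35.9% and 28.1% at day 12 with Sfrp2, 29.3%, 1.78% and 205% at day 12 with vehicle, and 0.195%, 0.184% and 0.251% before MI. This level was higher in all 8 libraries after MI than in the 3 before it, and in day 12 vehicle replicate 3 it exceeded the 75 genes themselves. The labels mention no molecular identifiers, and reads that are PCR copies are not separate molecules, so intervals on reads cover counting error alone. The Kit gene itself averaged 4.54 ± 1.56 at day 1, 10.7 ± 3.88 at day 12 with Sfrp2, 20.5 ± 12.6 at day 12 with vehicle and 10.3 ± 6.71 before MI in normalised value (SD, with n as above). The named markers of these complexes, Cox5a, Sdhd and Atp5a1, were detected in every pre-MI library, as given below.

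**Figure D1:**
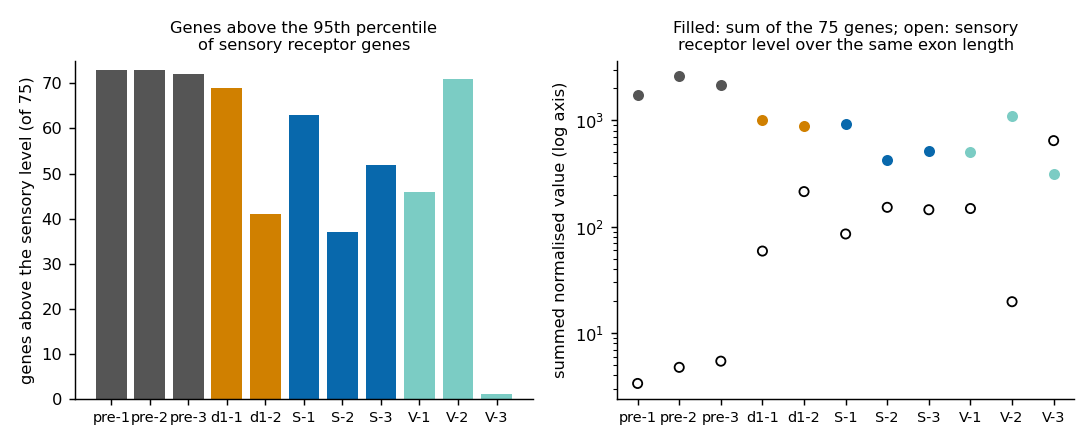
Left: number of the 75 genes with a value per exon kb above the 95th percentile of sensory receptor genes, 1 bar per library (pre, before MI; d1, day 1; S, day 12 Sfrp2; V, day 12 vehicle; the digit after the hyphen is the replicate). Right: summed normalised value of the 75 genes (filled) and sensory receptor level over the same exon length (open), log axis; the open point lies above the filled one only in V-3.

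Together the 75 genes were lower after MI than before it. Their normalised values (counts over a size factor) summed to 1002 and 881 at day 1, 931, 424 and 513 at day 12 with Sfrp2, 505, 1109 and 314 at day 12 with vehicle, and 1725, 2594 and 2170 before MI. Every library after MI was below every library before MI. The mean sum was 43.6% of the pre-MI mean at day 1, 28.8% at day 12 with Sfrp2 and 29.7% at day 12 with vehicle. As a share of reads outside mitochondrial genes and 4 satellite-like genes, the 75 genes took 0.595% and 0.524% at day 1, 0.588%, 0.266% and 0.329% at day 12 with Sfrp2, 0.308%, 0.535% and 0.144% at day 12 with vehicle, and 0.968%, 1.49% and 1.10% before MI. In these bulk samples, fewer cells of a type and less RNA per cell cannot be told apart.

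Single genes were tested with limma on log2(value + 1), with adjustment over all 15223 genes, and are called where the adjusted p was under 0.05. At day 1 against pre-MI, 13 of the 75 genes were called lower and 0 higher, where 2.65% of all genes were called lower and 21.3% higher. The day 1 calls depended on the fit: 0 were lower in a fit of all 11 c-Kit(+) libraries or after the sensory receptor level was subtracted, 3 with a weight per library, 11 with DESeq2 and 24 with edgeR. Leaving out day 1 replicate 1 or 2 gave 6 or 3, and leaving out pre-MI replicate 2 or 3 gave 5 each. A gene said below to have fallen at day 1 was called by limma on these 5 libraries, and none of the 75 was called in the all-library fit. At day 12 with Sfrp2 against pre-MI, 50 were called lower and 3 higher, where 8.82% of all genes were called lower and 48.8% higher. The 50 became 27 in the all-library fit, and without Sfrp2 replicate 3 there were 30 lower and 1 higher. At day 12 with vehicle against pre-MI, limma called 0 of the 75 genes in either direction, and 0% of all genes lower and 0% higher. There, 49 genes were lower and 1 was higher at an unadjusted p under 0.05 (5.38% and 28.5% of all genes), and edgeR and DESeq2 each called 2 lower. The count of 0 moved with the setting: 53 were lower with a weight per library and 40 in the all-library fit, both with replicate 2 kept, and without day 12 vehicle replicate 2 limma called 41 lower and 2 higher, where 6.5% of all genes were lower and 35.7% higher. The fit without replicate 2 rests on vehicle replicates 1 and 3. There the sensory receptor level came to 29.3% and 205% of the summed value of the 75 genes, against 1.78% in replicate 2. Without replicate 3, the library with few reads, the count stayed at 0. A count of 0 does not show that these genes did not differ. Shares of all genes at the alternative settings are not given here, except without vehicle replicate 2. Those counts show how calls moved with the setting, and not how the 75 genes stood against all genes. The authors' deposited table called 31 lower and 0 higher at day 12 with Sfrp2 (4.56% and 28.9% of all genes) and 23 lower and 1 higher with vehicle (2.65% and 23.1%). At day 1 the authors called 0 of the 75 genes lower and 0 higher, where 2.05% of all genes were called in either direction. These 3 comparisons share the pre-MI libraries.

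The middle of the 75 genes moved against the middle of all genes. The median log2 difference of the 75 genes was -0.93 at day 1, -1.48 at day 12 with Sfrp2 and -1.80 at day 12 with vehicle, each against pre-MI. Over all 15223 genes the median was 0.70, 1.27 and 1.00 in the same order, so these scaled values place most listed genes higher after MI. Libraries did not overlap, with all after MI lower, for 45 genes at day 1 (10.4% of all genes), 55 at day 12 with Sfrp2 (11.5%) and 45 at day 12 with vehicle (7.08%). They did not overlap, with all after MI higher, for 2 genes at day 1 (39.6% of all genes), 3 with Sfrp2 (51.4%) and 3 with vehicle (26.3%).

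**Figure D2:**
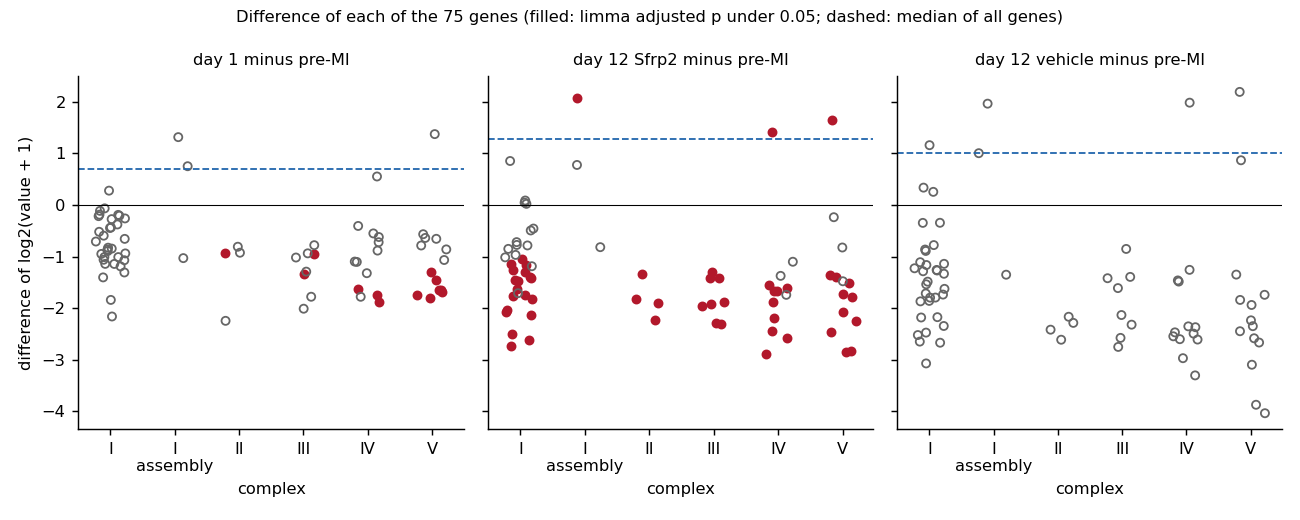
Difference of log2(normalised value + 1) for each of the 75 genes by complex at day 1, day 12 with Sfrp2 and day 12 with vehicle, each minus pre-MI. Filled points have a limma adjusted p under 0.05 (13, 53 and 0 genes) and the dashed line is the median of all 15223 genes (0.70, 1.27 and 1.00).

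Complex I takes electrons from NADH. Its 33 named genes summed to 326 and 299.6 at day 1, 278, 158 and 179 at day 12 with Sfrp2, 167, 306 and 151 at day 12 with vehicle, and 426, 609.5 and 602 before MI in normalised value. All 8 libraries after MI were below the 3 before it. The group means were 57.3% of pre-MI at day 1, 37.6% at day 12 with Sfrp2 and 38.1% at day 12 with vehicle. None of the 33 genes was called at day 1, and 32 of them had a negative difference. At day 12 with Sfrp2, 19 were called lower and 0 higher, with a median difference of -1.26. Ndufa2, a small accessory subunit and the complex I gene with the highest pre-MI level per exon kb (55.2), had values of 25.8 and 28.7 at day 1, 14.1, 5.02 and 5.31 at day 12 with Sfrp2, 3.89, 26.8 and 0 at day 12 with vehicle, and 24.6, 17.9 and 52.3 before MI. Day 1 lay within the pre-MI range, and the libraries of both day 12 groups overlapped it only through vehicle replicate 2. Its log2 difference was -0.07 ± 0.48 (± SE of the fit here and below) at day 1 (limma adjusted p = 0.943) and -1.83 ± 0.51 at day 12 with Sfrp2 (limma adjusted p = 0.014). The gene Ndufa4, named for complex I though its protein has since been placed with complex IV, had values of 16.9 and 10.3 at day 1, 17.6, 5.02 and 6.95 at day 12 with Sfrp2, 7.01, 16.4 and 0 at day 12 with vehicle, and 23.7, 46.6 and 28.4 before MI. All libraries after MI were lower than all before it, and the difference was -1.19 ± 0.39 at day 1 (limma adjusted p = 0.097) and -1.76 ± 0.47 at day 12 with Sfrp2 (limma adjusted p = 0.0123). Ndufv3, a flavoprotein-module subunit chosen after its values were seen as the deepest fall of complex I at day 12 with Sfrp2, had values of 16.1 and 6.89 at day 1, 4.23, 1.88 and 2.86 at day 12 with Sfrp2, 3.89, 9.74 and 5.61 at day 12 with vehicle, and 17.0, 28.7 and 30.7 before MI. All libraries after MI lay below those before it, with a difference of -2.73 ± 0.38 for Sfrp2 (limma adjusted p = 0.000575).

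Not every complex I gene was called. Of the 33, 14 were not called at day 12 with Sfrp2, and 4 of those had a positive difference. Ndufb7, an accessory subunit of the membrane arm, had values of 11.3 and 13.8 at day 1, 10.6, 13.8 and 11.4 at day 12 with Sfrp2, 8.57, 14.0 and 11.2 at day 12 with vehicle, and 10.4, 28.7 and 51.1 before MI. Its libraries after MI stayed within 8.57 to 14.0, and the pre-MI libraries spread over a wider range that overlapped it. The difference was -0.95 ± 0.68 at day 1 and -1.02 ± 0.52 at day 12 with Sfrp2 (limma adjusted p = 0.363 and 0.124). The assembly factors, which help build complex I and leave it, took small values: their sums were 14.5 and 10.3 at day 1, 14.8, 20.1 and 12.7 at day 12 with Sfrp2, 14.8, 7.91 and 24.3 at day 12 with vehicle, and 12.3, 26.9 and 13.6 before MI. All groups overlapped. Ndufaf4 had values of 10.5 and 4.59 at day 1, 9.86, 10.7 and 5.31 at day 12 with Sfrp2, 6.23, 6.70 and 3.74 at day 12 with vehicle, and 11.4, 23.3 and 13.6 before MI and was not called in any comparison (-0.82 ± 0.40 at day 12 with Sfrp2, limma adjusted p = 0.107).

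Complex II, succinate dehydrogenase, is also an enzyme of the TCA cycle, and all its subunits are nuclear. Its 4 genes summed to 75.8 and 60.8 at day 1, 55.6, 31.4 and 31.9 at day 12 with Sfrp2, 30.4, 65.1 and 9.35 at day 12 with vehicle, and 113, 201 and 136 before MI. Every library after MI was below the lowest before it. The mean was 45.6% of pre-MI at day 1, 26.4% at day 12 with Sfrp2 and 23.3% at day 12 with vehicle. Sdha, the flavoprotein that oxidises succinate, was called at day 1 and all 4 were called at day 12 with Sfrp2. Sdha had values of 27.4 and 24.1 at day 1, 16.2, 10.0 and 14.3 at day 12 with Sfrp2, 15.6, 22.5 and 1.87 at day 12 with vehicle, and 47.3, 55.6 and 46.6 before MI. Its groups after MI did not overlap the pre-MI group, with differences of -0.92 ± 0.18 at day 1 (limma adjusted p = 0.0253) and -1.83 ± 0.28 at day 12 with Sfrp2 (limma adjusted p = 0.000921). Sdhd, the membrane anchor whose promoter is shown above, had values of 10.5 and 2.30 at day 1, 12.7, 3.14 and 3.27 at day 12 with Sfrp2, 5.45, 4.87 and 1.87 at day 12 with vehicle, and 21.8, 43.0 and 23.9 before MI. All 8 libraries after MI were lower than the 3 before it, and both day 1 libraries differed from each other more than those of Sdha did. Its difference was -2.25 ± 0.65 at day 1 (limma adjusted p = 0.0691) and -2.23 ± 0.52 at day 12 with Sfrp2 (limma adjusted p = 0.00671). The partner anchor Sdhc had values of 26.6 and 26.4 at day 1, 19.7, 9.42 and 8.99 at day 12 with Sfrp2, 5.45, 28.0 and 5.61 at day 12 with vehicle, and 33.1, 73.5 and 43.2 before MI, again with no overlap, and a difference of -1.90 ± 0.41 at day 12 with Sfrp2 (limma adjusted p = 0.00468).

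Complex III passes electrons from ubiquinol to cytochrome c. Its 8 genes summed to 106 and 67.7 at day 1, 101, 39.5 and 45.0 at day 12 with Sfrp2, 53.7, 137 and 20.6 at day 12 with vehicle, and 174, 273 and 235 before MI. Every library after MI was below those before it, with means of 38.1% of pre-MI at day 1, 27.2% at day 12 with Sfrp2 and 31.0% at day 12 with vehicle. Of the 8 genes, 2 were called lower at day 1 and 8 at day 12 with Sfrp2. All 8 also had separate libraries in both of those comparisons. Uqcrfs1, the Rieske iron-sulfur protein, had values of 16.1 and 4.59 at day 1, 16.2, 3.77 and 5.31 at day 12 with Sfrp2, 5.45, 14.6 and 1.87 at day 12 with vehicle, and 32.2, 50.2 and 35.2 before MI. The highest library after MI held less than the lowest before it, and the difference was -2.01 ± 0.55 at day 1 (limma adjusted p = 0.0585) and -2.30 ± 0.49 at day 12 with Sfrp2 (limma adjusted p = 0.00418). Uqcrh, the hinge protein at the cytochrome c side, had values of 25.8 and 16.1 at day 1, 27.5, 6.91 and 13.1 at day 12 with Sfrp2, 10.1, 45.1 and 0 at day 12 with vehicle, and 43.5, 68.1 and 50.0 before MI. Vehicle replicate 2 overlapped the pre-MI range and the other libraries after MI did not. Uqcrh fell at day 1 (-1.33 ± 0.31, limma adjusted p = 0.0392) and at day 12 with Sfrp2 (-1.88 ± 0.46, limma adjusted p = 0.00847). Uqcrc2, a core protein, had the values 15.3 and 12.6 at day 1, 14.8, 11.3 and 7.36 at day 12 with Sfrp2, 9.34, 13.4 and 7.48 at day 12 with vehicle, and 24.6, 26.9 and 32.9 before MI, with no overlap after MI. It fell at day 1 (-0.96 ± 0.23, limma adjusted p = 0.0446) and at day 12 with Sfrp2 (-1.30 ± 0.33, limma adjusted p = 0.00951).

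**Figure D3:**
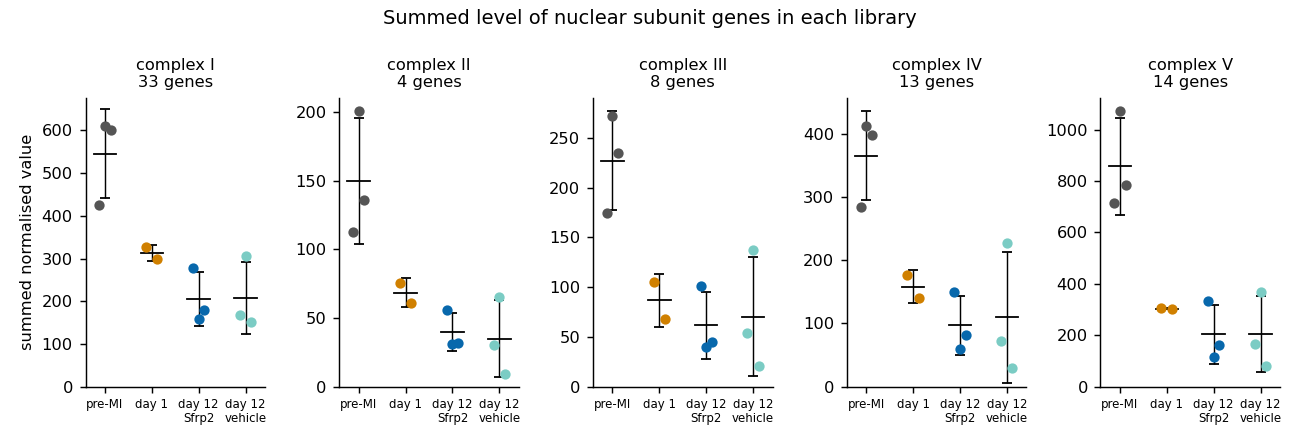
Summed normalised value of the nuclear genes of complexes I, II, III, IV and V (33, 4, 8, 13 and 14 genes; the 3 assembly factors are not drawn), 1 point per library, with the mean (line) and SD (bar) of each group. In each panel every library after MI lies below every pre-MI library.

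Complex IV, cytochrome c oxidase, reduces oxygen. Its 13 nuclear genes summed to 177 and 140.0 at day 1, 149, 59.6 and 81.4 at day 12 with Sfrp2, 72.4, 226 and 29.9 at day 12 with vehicle, and 285, 412 and 399 before MI. All libraries after MI were below those before it, with means of 43.3% of pre-MI at day 1, 26.5% at day 12 with Sfrp2 and 30.0% at day 12 with vehicle. At day 1, 3 genes were called lower, which were Cox6a2, Cox6c and Cox7b. At day 12 with Sfrp2, 9 were called lower and 1 higher. Cox7a2, Cox7a2l and Cox8b, listed after their values were seen, were not called, with differences of -1.38, -1.10 and -1.74. Cox5a, a subunit near the matrix face, had values of 10.5 and 12.6 at day 1, 11.3, 4.39 and 4.91 at day 12 with Sfrp2, 5.45, 12.8 and 5.61 at day 12 with vehicle, and 18.9, 25.1 and 22.7 before MI. Its libraries after MI were all lower than those before it, and the difference was -0.89 ± 0.24 at day 1 (limma adjusted p = 0.0586) and -1.66 ± 0.39 at day 12 with Sfrp2 (limma adjusted p = 0.00656). Cox4i1, the general isoform of the largest nuclear subunit, had values of 29.0 and 13.8 at day 1, 16.2, 6.91 and 6.13 at day 12 with Sfrp2, 12.5, 39.6 and 0 at day 12 with vehicle, and 36.9, 62.7 and 37.5 before MI. Vehicle replicate 2 alone overlapped the pre-MI range, and the gene fell at day 12 with Sfrp2 (-2.19 ± 0.41, limma adjusted p = 0.00233). Cox7b, a small membrane subunit encoded on the X chromosome, had values of 8.87 and 9.18 at day 1, 8.45, 2.51 and 6.13 at day 12 with Sfrp2, 2.34, 14.6 and 0 at day 12 with vehicle, and 28.4, 44.8 and 36.3 before MI. No library after MI reached the lowest before MI, and Cox7b fell at day 1 (-1.88 ± 0.26, limma adjusted p = 0.00948) and at day 12 with Sfrp2 (-2.58 ± 0.42, limma adjusted p = 0.00113). Cox6c, another membrane subunit, had values of 23.4 and 17.2 at day 1, 23.2, 15.7 and 13.1 at day 12 with Sfrp2, 9.34, 24.4 and 3.74 at day 12 with vehicle, and 47.3, 89.6 and 63.6 before MI, again without overlap. Its difference was -1.64 ± 0.33 at day 1 (limma adjusted p = 0.0269) and -1.88 ± 0.34 at day 12 with Sfrp2 (limma adjusted p = 0.00192).

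Complex IV has subunits that come as a muscle isoform, made in heart and skeletal muscle, and a general isoform made in most tissues. Cox6a2, the muscle isoform, had values of 10.5 and 14.9 at day 1, 7.75, 3.14 and 5.31 at day 12 with Sfrp2, 5.45, 28.6 and 0 at day 12 with vehicle, and 26.5, 53.8 and 60.2 before MI. Cox6a1, its general partner, had values of 25.0 and 18.4 at day 1, 20.4, 3.14 and 11.4 at day 12 with Sfrp2, 7.01, 32.3 and 0 at day 12 with vehicle, and 26.5, 26.9 and 45.4 before MI. Before MI the muscle isoform was at or above the general one in each library, and after MI it was at or below it in every library with reads. Cox6a2 fell at day 1 (-1.74 ± 0.43, limma adjusted p = 0.046) and at day 12 with Sfrp2 (-2.89 ± 0.42, limma adjusted p = 0.000712). Cox6a1 gave -0.55 ± 0.33 at day 1 (limma adjusted p = 0.288) and fell at day 12 with Sfrp2 (-1.67 ± 0.58, limma adjusted p = 0.0355). Cox7a1, the muscle isoform of another subunit, fell by 2.45 on the log2 scale at day 12 with Sfrp2 (limma adjusted p = 0.00297). Its general partner Cox7a2 was not called (-1.38 ± 0.70, limma adjusted p = 0.12). The remaining pair had the opposite calls, though the gene not called had the larger difference. The general isoform Cox8a fell at day 12 with Sfrp2 (-1.62 ± 0.36, limma adjusted p = 0.00497), and the muscle isoform Cox8b was not called (-1.74 ± 0.67, limma adjusted p = 0.052).

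As a share of the pair's reads, Cox6a2 took 29.5% and 44.8% at day 1, 27.5%, 50.0% and 31.7% at day 12 with Sfrp2, 43.8% and 47.0% at day 12 with vehicle (replicate 3 had 0 reads and was dropped), and 50.0%, 66.7% and 57.0% before MI. The groups met at 50.0%, which Sfrp2 replicate 2 and pre-MI replicate 1 shared. Cox7a1 took 42.2% ± 25.9 of its pair's reads at day 12 with Sfrp2 and 57.9% ± 20.4 before MI (SD, n = 3 each, exact 2-sided permutation p = 0.6). Cox8b took 63.7% ± 7.22 of its pair's reads at day 12 with Sfrp2 and 60.8% ± 24.4 before MI (SD, n = 3 each, exact 2-sided permutation p = 0.9). With the Cox7a1 and Cox8b pairs added, muscle isoforms took 43.3% ± 9.46 of reads at day 1 (SD, n = 2), 41.8% ± 14.5 at day 12 with Sfrp2 (n = 3), 38.7% ± 6.19 at day 12 with vehicle (n = 2) and 60.0% ± 7.54 before MI (n = 3). The exact 2-sided permutation test gave p = 0.2 for each of these 3 comparisons with pre-MI, where the smallest p the design allows is 0.2, 0.1 and 0.2, and 0.4 after adjustment over 16 tests. Exact binomial intervals of single libraries were wide, from 18.01% to 40.7% in Sfrp2 replicate 1 (67 reads) and from 34.0% to 78.2% in Sfrp2 replicate 2 (21 reads).

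**Figure D4:**
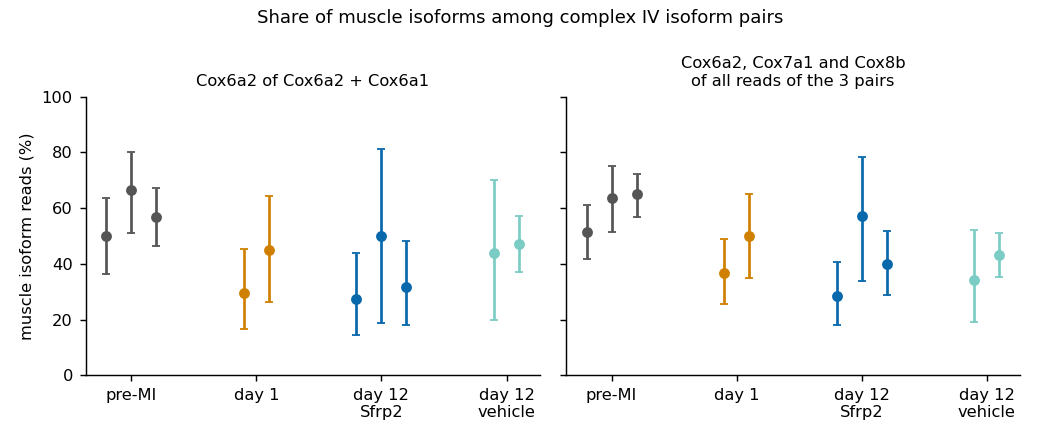
Share of muscle-isoform reads (percent) for the Cox6a2 and Cox6a1 pair (left) and for the pairs Cox6a2/Cox6a1, Cox7a1/Cox7a2 and Cox8b/Cox8a together (right), 1 point per library with its exact 95% binomial interval. Day 12 vehicle replicate 3 had 0 reads on these genes and is not drawn; pre-MI shares for the 3 pairs lie between 51.4% and 65.0%.

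Complex V, the ATP synthase, has a catalytic head with the alpha and beta subunits and a rotor whose ring is made of subunit c. The 14 genes summed to 304 and 303 at day 1, 332, 115 and 164 at day 12 with Sfrp2, 167, 367 and 78.5 at day 12 with vehicle, and 715, 1072 and 784 before MI. All libraries after MI were below those before it, with means of 35.4% of pre-MI at day 1, 23.8% at day 12 with Sfrp2 and 23.8% at day 12 with vehicle. At day 1, 7 of 14 were called lower, and at day 12 with Sfrp2 10 were called lower and 1 higher. Atp5a1, the alpha subunit, had values of 82.3 and 75.7 at day 1, 90.1, 15.1 and 33.9 at day 12 with Sfrp2, 35.8, 118 and 0 at day 12 with vehicle, and 240.3, 337 and 236 before MI. The highest library after MI, vehicle replicate 2, held less than the lowest before MI. Atp5a1 fell at day 1 (-1.75 ± 0.21, limma adjusted p = 0.0065) and at day 12 with Sfrp2 (-2.85 ± 0.56, limma adjusted p = 0.00288). For vehicle the difference was -4.04 ± 1.34 (limma adjusted p = 0.0918), with the 3 vehicle libraries far apart. Atp5b, the catalytic beta subunit, had values of 46.0 and 51.6 at day 1, 49.3, 20.1 and 20.9 at day 12 with Sfrp2, 30.4, 43.2 and 1.87 at day 12 with vehicle, and 120.2, 161 and 126 before MI. No library after MI overlapped those before it, and Atp5b fell at day 1 (-1.45 ± 0.19, limma adjusted p = 0.00776) and at day 12 with Sfrp2 (-2.25 ± 0.37, limma adjusted p = 0.00128).

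Subunit c of the rotor ring comes from several genes whose mature proteins are the same. Atp5g3 had the highest pre-MI level of all 75 genes per exon kb (88.3) and values of 59.7 and 59.7 at day 1, 76.1, 19.5 and 24.9 at day 12 with Sfrp2, 28.8, 72.4 and 0 at day 12 with vehicle, and 152, 237 and 189 before MI. Its libraries after MI all lay below those before MI, with a fall at day 1 (-1.65 ± 0.22, limma adjusted p = 0.00818) and at day 12 with Sfrp2 (-2.47 ± 0.48, limma adjusted p = 0.00281). Atp5g1 had values of 7.26 and 3.44 at day 1, 4.23, 6.91 and 11.9 at day 12 with Sfrp2, 7.79, 11.6 and 46.7 at day 12 with vehicle, and 4.73, 12.5 and 10.2 before MI. Its groups overlapped, the highest value was in vehicle replicate 3, and it was not called (-0.66 ± 0.54 and -0.24 ± 0.48, limma adjusted p = 0.427 and 0.686). Atp5k, the membrane subunit e whose promoter is shown above, had values of 17.7 and 16.1 at day 1, 9.86, 1.88 and 3.68 at day 12 with Sfrp2, 2.34, 19.5 and 3.74 at day 12 with vehicle, and 21.8, 59.2 and 37.5 before MI. All libraries after MI were lower, and Atp5k fell at day 12 with Sfrp2 (-2.83 ± 0.55, limma adjusted p = 0.00274) and was not called at day 1 (-1.07 ± 0.45, limma adjusted p = 0.167). Atp5o, which joins the head to the stalk, had values of 11.3 and 5.74 at day 1, 7.75, 5.65 and 6.54 at day 12 with Sfrp2, 8.57, 10.3 and 1.87 at day 12 with vehicle, and 30.3, 43.0 and 22.7 before MI. It showed no overlap and fell at day 1 (-1.81 ± 0.41, limma adjusted p = 0.0371) and at day 12 with Sfrp2 (-2.07 ± 0.33, limma adjusted p = 0.00104).

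**Figure D5:**
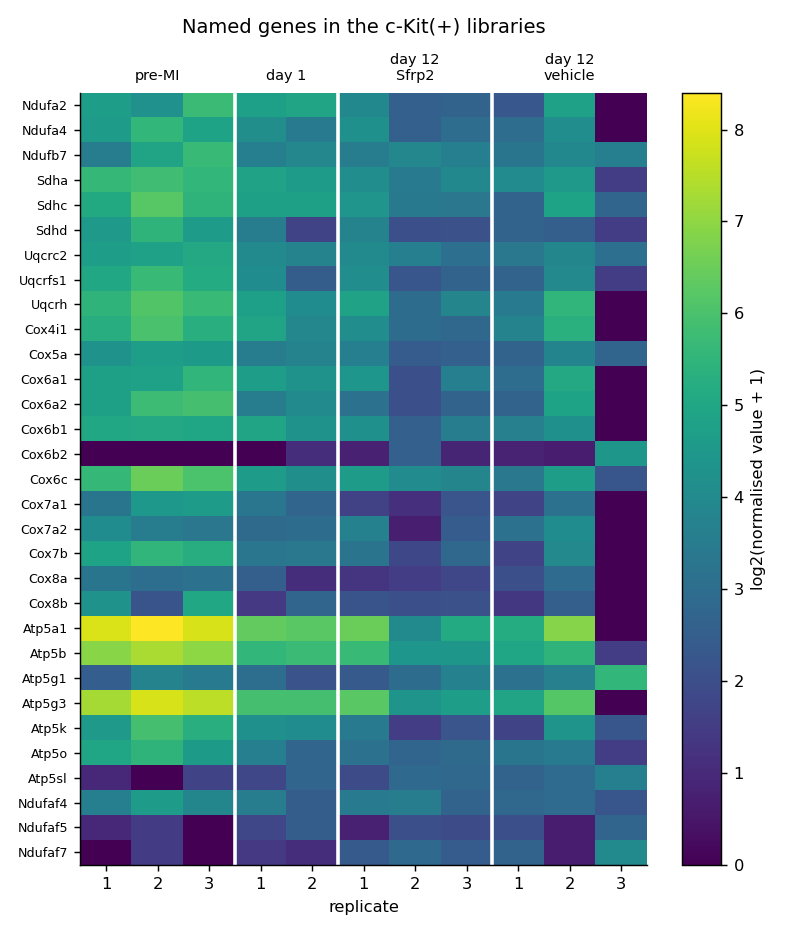
log2(normalised value + 1) of the named genes (rows, by complex, assembly factors last) in each c-Kit(+) library (columns, replicate number below, group above). Atp5a1, Atp5b and Atp5g3 are the brightest rows before MI; Cox6b2, Atp5sl, Ndufaf5 and Ndufaf7 are dark before MI, and day 12 vehicle replicate 3 has many rows at 0.

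The genes called higher at day 12 with Sfrp2 were 3, each with few reads. A gene needed 10 or more reads in some library to be listed, and none of the 3 reached that before MI. Ndufaf7 reached it only in Sfrp2 replicates 2 and 3, and Cox6b2 only in vehicle replicate 3. The listing itself thus favoured low pre-MI values for them, and these calls cannot show a rise. Ndufaf7, a methyltransferase that modifies a complex I subunit during assembly, had values of 1.61 and 1.15 at day 1, 4.23, 6.28 and 4.50 at day 12 with Sfrp2, 5.45, 0.609 and 15.0 at day 12 with vehicle, and 0, 1.79 and 0 before MI. Atp5sl, named for its likeness to an ATP synthase factor though its protein is known as a complex I assembly factor, had values of 2.42 and 5.74 at day 1, 2.82, 6.28 and 6.13 at day 12 with Sfrp2, 5.45, 6.70 and 11.2 at day 12 with vehicle, and 0.946, 0 and 2.27 before MI. Cox6b2, the testis isoform of a complex IV subunit, had values of 0 and 1.15 at day 1, 0.704, 5.02 and 0.818 at day 12 with Sfrp2, 0.779, 0.609 and 20.6 at day 12 with vehicle, and 0, 0 and 0 before MI. In Sfrp2 libraries all 3 lay above the pre-MI libraries, and the highest value of each among the c-Kit(+) libraries was in vehicle replicate 3. The log2 differences for Sfrp2 were 2.08 ± 0.48 for Ndufaf7 (limma adjusted p = 0.00609), 1.65 ± 0.52 for Atp5sl (limma adjusted p = 0.025) and 1.41 ± 0.46 for Cox6b2 (limma adjusted p = 0.0282), beside the all-gene median of 1.27. Cox6b2 turned to -0.0629 when each library was centred on its median. After the sensory receptor level per exon kb was subtracted, 0 of the 75 genes were called higher and 43 lower at day 12 with Sfrp2. The same subtraction left 0 called lower at day 1. Shares of all genes after subtraction are not given here. Ndufaf5, a further low gene, had values of 2.42 and 4.59 at day 1, 0.704, 3.14 and 2.86 at day 12 with Sfrp2, 3.11, 0.609 and 5.61 at day 12 with vehicle, and 0.946, 1.79 and 0 before MI and was not called at day 12 with Sfrp2 (limma adjusted p = 0.209). The partner of Cox6b2, the general isoform Cox6b1, had values of 29.0 and 18.4 at day 1, 17.6, 5.02 and 10.6 at day 12 with Sfrp2, 11.7, 17.7 and 0 at day 12 with vehicle, and 31.2, 32.3 and 29.5 before MI and fell at day 12 with Sfrp2 (-1.55 ± 0.42, limma adjusted p = 0.0126).

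On summed values without background subtraction, complex V was lower relative to complex I in libraries after MI. The sums lean on few genes: Atp5a1, Atp5g3 and Atp5b averaged 271, 193 and 136 before MI, where the complex V sum averaged 857. Atp5sl is counted in the complex V sum. The summed value of complex V over that of complex I was 0.933 and 1.01 at day 1, 1.19, 0.726 and 0.913 at day 12 with Sfrp2, 1.00, 1.20 and 0.519 at day 12 with vehicle, and 1.68, 1.76 and 1.30 before MI. All 8 libraries after MI were below the lowest of the 3 before it. With the sensory receptor level subtracted the ratio was 0.973 and 1.26 at day 1, 1.31, 0.908 and 1.16 at day 12 with Sfrp2, 1.36 and 1.22 at day 12 with vehicle (none could be formed for replicate 3), and 1.68, 1.76 and 1.31 before MI. On that scale Sfrp2 replicate 1 and vehicle replicate 1 were at or above the lowest pre-MI library. The ratio is a description with no test. The complex I genes span 75091 exon bases and those of complex V 37671, so an equal background per base adds more to complex I. The part of background in the ratio beyond this subtraction was not tested.

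Day 12 with Sfrp2 against day 12 with vehicle gave 0 of the 75 genes called in either direction (0% of all genes lower and 0% higher). By limma 0 of the 75 passed an unadjusted p under 0.05 in either direction, where 0.42% of all genes were lower and 1.02% higher. edgeR and DESeq2 also called 0, while a weight per library gave 7 higher. The share of all genes called higher with that weight is not given here, so the 7 cannot be set against it. The median log2 difference was 0.28 for the 75 genes and 0.22 for all genes. Ndufs3, a core subunit of complex I, was lower in all Sfrp2 libraries, with 2.82, 3.14 and 4.91, against 7.01, 6.70 and 13.1 with vehicle, a pattern shown by 2.33% of all genes. Ndufs1, the core subunit with the most iron-sulfur clusters, was higher in all Sfrp2 libraries, with 7.75, 5.02 and 7.36, against 3.11, 4.26 and 1.87 with vehicle, as were 4.93% of all genes. Both were singled out after their values were seen, and their adjusted p-values by limma were 1.00. The summed value of the 75 genes was 623 ± 271 with Sfrp2 and 643 ± 415 with vehicle (SD, n = 3 each), a difference well inside the spread of either group.

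Genes of the same pathway outside the symbol rule were read from lists chosen with earlier results known. Beside the counts below, 2.65% of all genes were called lower and 21.3% higher at day 1. For Sfrp2 8.82% of all genes were called lower and 48.8% higher. Of 16 listed TCA cycle genes, which feed NADH and succinate to the chain, 9 were called lower at day 1 and 10 at day 12 with Sfrp2, with 0 higher in both. Their median difference was -1.21 at day 1, -1.29 at day 12 with Sfrp2 and -1.23 at day 12 with vehicle. Citrate synthase Cs averaged 22.2 ± 7.50 at day 1, 16.7 ± 5.11 at day 12 with Sfrp2, 13.2 ± 10.8 at day 12 with vehicle and 75.2 ± 12.7 before MI, with limma adjusted p = 0.0145 at day 1 and 0.000586 for Sfrp2. Malate dehydrogenase Mdh2 fell by 1.57 at day 1 and by 2.69 at day 12 with Sfrp2 on the log2 scale (limma adjusted p = 0.0212 and 0.00193). Among 15 electron carriers and coupled factors, 0 were called lower and 1 higher at day 1, and 5 lower and 3 higher at day 12 with Sfrp2. Cyc1, the haem-bearing cytochrome of complex III that the symbol rule does not catch, averaged 6.67 ± 0.307 at day 1, 2.76 ± 0.824 at day 12 with Sfrp2, 4.54 ± 4.90 at day 12 with vehicle and 17.98 ± 11.6 before MI, and its difference for Sfrp2 was -2.17 ± 0.50 (limma adjusted p = 0.00644). Slc25a3, the phosphate carrier that supplies the ATP synthase, fell by 1.37 for Sfrp2 (limma adjusted p = 0.01).

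Assembly and insertion factors outside the rule were read as a further list, and its difference from the subunits was not tested. Of 21 listed, 0 were called at day 1. At day 12 with Sfrp2, 3 were lower and 4 higher, where 8.82% of all genes were called lower and 48.8% higher. The summed value of the 21 factors was 217 to 235 at day 1, 181 to 216 with Sfrp2 and 163 to 272 with vehicle. Before MI it was 176 to 264, and these ranges overlapped. Of 13 listed transcriptional regulators of mitochondrial genes, 1 was called lower at day 1 and 3 were called higher at day 12 with Sfrp2, a smaller share than the 48.8% of all genes called higher there. Gabpa, the DNA-binding subunit of GABP, was the gene called at day 1 (-1.05 ± 0.23, limma adjusted p = 0.0342). Nrf1, the factor of the motif above, averaged 17.5 ± 7.68 at day 1, 21.7 ± 2.96 at day 12 with Sfrp2, 26.6 ± 26.5 at day 12 with vehicle and 4.69 ± 3.27 before MI, and was called higher for Sfrp2 (2.21 ± 0.52, limma adjusted p = 0.00675), where the median of all genes was 1.27. Nrf1 spans 10282 exon bases, so background per base adds more to it than to shorter genes. The sensory receptor level per exon kb was 0.529, 0.942 and 0.894 with Sfrp2 and 0.0208 to 0.0337 before MI. That level was not subtracted from the Nrf1 values given. Ppargc1a, the PGC-1alpha coactivator, averaged 26.8 ± 28.7 at day 1, 15.7 ± 4.45 at day 12 with Sfrp2, 11.8 ± 4.58 at day 12 with vehicle and 16.6 ± 8.62 before MI, and was not called (limma adjusted p = 0.871 at day 1 and 0.928 for Sfrp2). Of 15 glycolysis genes, 2 were called lower and 1 higher at day 1, and 5 lower and 3 higher at day 12 with Sfrp2. Over all genes the shares lower and higher were 2.65% and 21.3% at day 1, and 8.82% and 48.8% with Sfrp2.

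The partner subunits encoded in mitochondrial DNA (8 listed) summed to 212911 to 273331 at day 1, 49155 to 171505 at day 12 with Sfrp2, 6694 to 123172 at day 12 with vehicle and 389688 to 651431 before MI, with no overlap between after and before MI. At day 1, 0 were called lower and 1 higher, where the shares of all genes were 2.65% and 21.3%. At day 12 with Sfrp2, 7 were called lower and 1 higher, where the shares of all genes were 8.82% and 48.8%. mt-Co1, the catalytic subunit of complex IV, had a difference of -0.999 ± 0.45 at day 1 (limma adjusted p = 0.189) and -2.62 ± 0.74 at day 12 with Sfrp2 (limma adjusted p = 0.0152). The gene called higher in both was mt-Nd3, which averaged 40.5 ± 9.32 at day 1, 14.1 ± 4.47 at day 12 with Sfrp2, 11.4 ± 12.6 at day 12 with vehicle and 0.598 ± 1.04 before MI.

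Markers of other cell types were read in the same comparisons, where 2.65% of all genes were called lower and 21.3% higher at day 1, and 8.82% lower and 48.8% higher for Sfrp2. Cardiomyocyte markers (10 of 10 listed) summed to 511 to 544 at day 1, 168 to 423 at day 12 with Sfrp2, 122 to 680 at day 12 with vehicle and 2278 to 3779 before MI, and 9 of 10 were called lower at day 1 and for Sfrp2. Myh6, the main cardiac myosin heavy chain of the mouse, averaged 42.8 ± 9.23 at day 1, 14.5 ± 1.71 at day 12 with Sfrp2, 24.8 ± 12.1 at day 12 with vehicle and 331 ± 106 before MI. Endothelial markers (10 of 10 listed) summed to 1094 to 1608 at day 1, 322 to 867 at day 12 with Sfrp2, 176 to 1386 at day 12 with vehicle and 3611 to 3686 before MI, with 7 called lower at day 1 and 10 for Sfrp2. Macrophage markers (9 of 10 listed) summed to 311 to 445 at day 1, 151 to 225 at day 12 with Sfrp2, 136 to 1325 at day 12 with vehicle and 13.6 to 26.9 before MI, with 7 called higher at day 1 and 8 for Sfrp2, and Cd14 and Fcgr3 at 0 in all pre-MI libraries. Fibroblast markers (7 of 8 listed) summed to 155 to 254 at day 1, 288 to 334 at day 12 with Sfrp2, 76.7 to 778 at day 12 with vehicle and 118 to 169 before MI, with 0 called at day 1 and 4 higher for Sfrp2, near the share of all genes. Of 3 erythroid genes, 3 were lower for Sfrp2 and 0 were called at day 1, of 6 lymphocyte genes 6 were higher for Sfrp2 and 1 at day 1, and of 2 mast cell genes 1 was higher for Sfrp2. The lymphocyte count at day 1 and the mast cell count were also near the share of all genes. None of these lists had a call for vehicle against pre-MI or for Sfrp2 against vehicle by limma. The part of these cell types in the fall of the 75 genes was not tested.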

How the data were processed

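RNA of c-Kit(+) heart cells was amplified as cDNA with the Ovation Pico WTA System V2 kit, per the labels' protocols. Per the submitters' processing notes and design text, Trim Galore and cutadapt trimmed the reads, STAR aligned them to GRCm38 (unique placements kept), HTSeq counted them per gene and DESeq2 normalised the counts; tool versions were not given in the sources used here. Per that design text, a gene needed 10 or more reads in some library to be listed, and subunit genes with near-identical pseudogene copies may lose reads at the unique-place step. The deposited values are a signal: counts scaled by size factors, per the file headers. Beside them stand the authors' log2 fold changes, deposited test statistics (a score) and the authors' p-values. Dividing a library's values by its smallest step returned whole reads for 100% of them (tolerance 0.001). Day 14 in column names was read as the day 12 of the labels.

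The main test was limma 3.58.1 (trended variance) on log2(value + 1), a scale that understates changes of low genes. Only libraries of the 2 compared groups entered a fit, and p-values were adjusted over 15223 genes (Benjamini-Hochberg). edgeR 4.0.16, DESeq2 1.42.0, other pseudocounts, filters, scalings, library weights and left-out libraries were alternatives. Isoform shares were compared by exact permutation tests. Exon lengths came from GENCODE (GRCm38). Named genes were the top 3 of each complex by mean value over the 11 c-Kit(+) libraries, and the isoform pairs. The largest called changes and genes called against their complex were also named. Members and lists were chosen with earlier results of these data known.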

Additional observations from a re-analysis of the deposited data

Results flagged for a closer look

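The library of cardiomyocytes from sham mice entered no comparison. In it, 5 of the 75 genes had values above every pre-MI c-Kit(+) library. Ndufaf5 was at 28.8, against 0.946, 1.79 and 0 before MI. Atp5sl was at 24.4, against 0.946, 0 and 2.27. Cox6b2 was at 11.1, against 0 in all 3 pre-MI libraries. Ndufaf7 was at 8.86, against 0, 1.79 and 0. Ndufs8, with 6 reads, was at 13.3, against 6.62, 12.5 and 9.09. There is 1 such library and no test, and 1 read in it is worth 2.21 in value. Ndufaf5 reached the 10 reads needed for listing only in this library. Atp5sl, Cox6b2 and Ndufaf7 reached them in no pre-MI library, so the listing itself favoured this pattern. The sensory receptor level over the same exon length came to 103% of the summed value of the 75 genes here.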

How the results depend on the processing

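At day 1 against pre-MI, 13 genes were called lower; this was 21 scaled to total reads outside mitochondrial genes, 51 with each library centred on its median, 24 with edgeR, 3 with a weight per library, 0 in a fit of all 11 c-Kit(+) libraries and 0 with the sensory receptor level subtracted, an alternative chosen after seeing the data. Leaving out single libraries gave 3 to 9 lower and 0 to 1 higher. The median of the 75 genes minus that of all genes (-1.63) was -1.02 at a pseudocount of 5, -0.705 for genes averaging 10 or more, -2.25 with that scaling by total reads, -1.98 with DESeq2 and -1.01 after subtraction.

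At day 12 with Sfrp2 against pre-MI, 50 lower calls became 27 in the fit of all libraries and 30 to 52 without single libraries. The 3 higher calls became 0 at a mean of at least 10, after centring and after subtraction, 1 with edgeR and DESeq2, and 1 to 3 without single libraries. Cox6b2 turned to -0.0629 after centring. The median difference (-2.75) was -1.67 at a pseudocount of 5, -1.25 at a mean of at least 10 and -3.59 scaled to total reads.

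At day 12 with vehicle against pre-MI, 0 lower calls became 5 scaled to total reads, 2 with edgeR and with DESeq2, 53 (and 2 higher) with weights, 40 (and 1 higher) in the fit of all libraries, and 0 to 41 (0 to 2 higher) without single libraries. For Sfrp2 against vehicle, weights called 7 higher. The median difference there (0.06) was -0.24 with edgeR, -0.25 with DESeq2, -0.0033 with weights, -0.12 after subtraction and -0.61 to 0.86 without single libraries.

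The cause of these shifts was not tested. Shares of all genes at these settings are not given, except without vehicle replicate 2 as above, so the counts cannot be set against all genes. Correlations of same-numbered deviations ran from -0.63 to 0.24. Deviations from the mean of only 2 or 3 libraries are tied to each other. These correlations therefore cannot show whether replicate numbers pair the libraries. A replicate block gave 0 lower calls at day 1, 55 for Sfrp2 against pre-MI and 29 for vehicle against pre-MI. Few reads per gene (a median of 1 in vehicle replicate 3, and 20 at most) limit what can be seen in single genes.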

Other observations

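The library labelled cardiomyocytes held 190259 reads, 198 of them on the 75 genes, and 34 of the 75 were at 0. Its summed value of the 75 genes was 438, against 1725, 2594 and 2170 in the pre-MI c-Kit(+) libraries. Among the ATP synthase genes, Atp5b was at 57.6, Atp5a1 at 19.9 and Atp5g3 at 0, against 120 to 161, 236 to 337 and 152 to 237 before MI. The cardiomyocyte markers summed to 142 there, with Mb and Pln at 0, against 2278 to 3779 before MI. The mean level of sensory receptor genes over the same exon length came to 103% of the summed value of the 75 genes, and 8 of the 75 exceeded the 95th percentile of sensory receptor genes per exon kb. The muscle isoforms of the 3 complex IV pairs took 9 of 17 reads (52.9%, exact 95% interval 27.8% to 77.0%).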
